A study of Mus musculus with 8 samples.

Results

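Microglia of the mouse optic nerve (ON) were examined in 8 single-nucleus RNA-seq (snRNA-seq) libraries, in which RNA molecules of each nucleus were counted as unique molecular identifiers (UMIs). A barcode counted as a nucleus when it held at least 1000 UMIs with under 5% of them in mitochondrial genes. Microglia were then chosen by marker counts. At least 3 of the 5 genes Csf1r, Inpp5d, Dock8, P2ry12 and Cx3cr1 had to be detected, P2ry12 or Cx3cr1 among them. Mrc1, F13a1 and Cd163, which mark border-associated macrophages (BAMs), could hold at most 1 UMI in sum, and the oligodendrocyte (OL) gene St18 had to be below 3 UMIs. In all, 1271 of 40845 nuclei met this rule (3.11%). The 4 control libraries came from Piezo2f/f mice without a cre transgene. The other 4 libraries are labelled Olig2-cre;Piezo2f/f conditional knockout (cKO), in which cre is driven from the Olig2 locus of the OL lineage, and these mice are heterozygous for Olig2. The mice of both groups were female, aged P120 and on a C57BL/6J background, and each library pooled 6 ONs of 3 mice. No group with Olig2-cre alone was analysed here, so that cre, Olig2 heterozygosity and Piezo2 loss cannot be told apart.

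Microglia are the resident macrophages of the central nervous system. They arise from yolk sac progenitors, renew themselves locally under the growth factor receptor CSF1R and survey the tissue with motile processes that follow purines through P2RY12 and neuronal fractalkine through CX3CR1. The transcription factor PU.1 (Spi1) sets the myeloid programme, and SALL1 with TGF-beta signalling maintains the microglial identity. In white matter such as the ON, microglia take up myelin debris, and in ageing or demyelination they can switch on a set of lipid and lysosomal genes often named disease-associated. Microglia lie outside the Olig2 lineage, so that their nuclei were not the target of the recombination.

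The libraries held 39628926 to 56541132 UMIs in all barcodes. Over the 28 pairs of libraries, 1 microglial barcode was shared. The control 3 library stood apart by pituitary RNA: Gh, which encodes growth hormone, reached 2485 CPM (counts-per-million of all UMIs summed) in its droplets. These droplets, of over 100 and up to 400 UMIs, fall below the limit for nuclei. In the other control libraries Gh was at 60.2 to 147 CPM there. In microglia, the pituitary genes Gh, Prl and Pomc summed to 43.9 to 2194 CPM in the controls. Their sum was 6.51 to 20.0 CPM in the libraries labelled cKO, without overlap. Piezo2, the targeted gene, was at 361 to 468 CPM in OL nuclei of the controls and at 487 to 523 CPM in OL nuclei of the libraries labelled cKO, without overlap. The floxed part is a few exons, and a count over the whole gene does not check their loss. The group is therefore called by its label throughout. Olig2 in OL nuclei was at 24.0 to 39.1 CPM in the controls and at 41.8 to 53.9 CPM in the libraries labelled cKO.

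The controls held 148, 131, 144 and 98 microglia, and the libraries labelled cKO held 169, 256, 122 and 203. Their median depth ran from 1911 to 2506.5 UMIs per nucleus and their median number of detected genes from 1335.5 to 1587.5, below the median depth of the other nuclei of the same libraries (2483 to 3436.5 UMIs). Among the members, 280 had 3 of the 5 markers, 495 had 4 and 496 had all 5. Just outside this limit, 523 nuclei had 2 of the markers and met every other condition. At the UMI limit, 20 members lay within 100 UMIs above it, and 9 barcodes within 100 UMIs below it missed it. St18 was absent from 1067 members, while 140 held 1 UMI and 64 held 2 UMIs. Just outside, 46 nuclei held 3 St18 UMIs, and the St18 limit removed 897 nuclei in total, 31.9 to 48.0% of the candidates of a library. Those removed had medians of 5838.5 to 8545 UMIs per library, well above the microglia kept.

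Transcripts of other cells were present in the microglial sums. The 9 OL markers together gave 3564 to 6635 CPM in control microglia and 4356 to 7639 CPM in microglia labelled cKO. In these droplets they gave 23228 to 29962 CPM, and all 9 lay below the droplets in 8 of 8 libraries. Of these markers St18 was limited by the rule and the other 8 were not. Taking the median over 10 myelin genes, the microglial level was 14.1 to 28.6% of the droplet level, with a mean of 19.9 ± 6.23% in the controls and 20.8 ± 3.95% in the libraries labelled cKO (SD, n = 4). The 5 astrocyte markers summed to 1090 to 1532 CPM in control microglia and to 818 to 1089 CPM in microglia labelled cKO, against 986 to 1922 CPM in the other nuclei. In total 492 members held at least 2 UMIs of these astrocyte genes and 194 held at least 2 UMIs of Dcn, Col1a2, Flt1, Pdgfra and Skap1. Leaving both sets out kept 711 microglia (55.9%), called marker-low microglia here. They may still hold 1 UMI of either set, up to 2 UMIs of St18 and any number of UMIs of other OL genes. Their median depth was 1727 to 2261 UMIs per library, below the 2254 to 3713 UMIs of the microglia left out in 8 of 8 libraries. The 10 BAM markers, of which Mrc1, F13a1 and Cd163 were limited by the rule, summed to 145 to 314 CPM, mostly of Colec12 and Stab1. The 7 fibroblast markers summed to 1110 to 4155 CPM in control microglia and to 1881 to 5456 CPM in microglia labelled cKO. The neutrophil list summed to 401 to 478 CPM, of which Csf3r made up 391 to 467 CPM, with S100a9 at 17.2 CPM at most and Ly6g and Mmp8 at 0 in all libraries. The 8 T cell markers summed to 44.1 to 73.5 CPM in control microglia and to 23.9 to 174 CPM in microglia labelled cKO. They summed to 25.2 to 40.6 CPM in other nuclei and to 11.8 to 19.7 CPM in droplets. Among them 3 lay above the droplets in 8 of 8 libraries, while Cd3e, which defines T cells, stayed at or below 2.31 CPM. The part that these transcripts take in the results below was not tested, except where values of marker-low microglia are given.

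The genes of the rule had these levels by construction, and they are given as a description only. Csf1r was at 658, 718, 573 and 732 CPM in control microglia and at 692, 834, 609 and 598 CPM in microglia labelled cKO. P2ry12, the purine receptor, was at 462, 512, 484 and 615 CPM in control microglia, and its levels were 625, 567, 509 and 493 CPM in microglia labelled cKO. Cx3cr1, the fractalkine receptor, was at 707, 804, 702 and 807 CPM and at 727, 991, 750 and 630 CPM, in the same order. The groups overlapped for all 3 genes. Inpp5d, a phosphatase that restrains signalling below TREM2, ranged from 871 to 1347 CPM, and Dock8, an exchange factor for CDC42, from 552 to 845 CPM. Mrc1 reached 16.6 CPM at most in microglia and averaged 1321 CPM in BAMs.

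Many genes outside the rule followed it. Of the 3302 genes with at least 50 CPM in microglia of every library, 1459 (44.2%) were higher in microglia than in all other nuclei in 8 of 8 libraries, and 557 were lower in 8 of 8. The median log2 ratio over these genes was 0.24, with 1 CPM added to each level. Genes entered by their level in microglia, so genes low in microglia and high elsewhere were left out. With genes at 50 CPM or more in every library in either microglia or other nuclei, an alternative chosen after seeing the data, 4367 genes entered, of which 1459 were higher and 1196 lower in 8 of 8 libraries, with a median of 0.07. Of the 3302 genes, the ratio was 2 or more for 348 and 3 or more for 195. Because the nuclei were chosen on the same counts, no test was made.

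The 25 genes with the highest ratios lay between 4.42 and 5.14 on the log2 scale. Csf3r, the receptor of granulocyte colony-stimulating factor (chromosome 4, 125918262 to 125938236 of GRCm39), was at 460, 453, 391 and 400 CPM in control microglia and at 445, 428, 463 and 467 CPM in microglia labelled cKO, against 12.1 to 17.7 CPM in other nuclei. Ly86, a partner of a toll-like receptor homologue, was at 690 to 957 CPM against 26.7 to 47.8 CPM. Ikzf1, the transcription factor Ikaros, was at 416 to 663 CPM against 17.6 to 24.0 CPM. For none of these did microglia and other nuclei of any library overlap.

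Several encode surface molecules. Selplg, a selectin ligand, had 341 to 555 CPM in microglia, and Siglech, a sialic acid-binding lectin, had 306 to 478 CPM. Itgam, which encodes CD11b, the alpha chain of complement receptor 3, had 222 to 353 CPM. Havcr2, the checkpoint receptor TIM-3, and Il10ra, the interleukin-10 receptor, were in the set with 110 to 213 and 167 to 247 CPM. Signalling and cytoskeletal genes followed: Myo1f, Fgd2, Nckap1l, Blnk, Rasal3, Bin2, Arhgap45, Pde3b, Gna15, Capn3 and the inflammasome sensor Nlrp1b, which belongs to a family of near-identical copies and is therefore uncertain.

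The noncoding genes Gm2629, Gm50035, Gm32164 and Gm2245, the gene Gm10790, which has no entry in the annotation used, and the thyroglobulin gene Tg completed the 25. Of the 24 genes with an annotated position, 11 overlapped a gene on the opposite strand, Gm2629 and Gm50035 each other and Tg the myeloid adaptor gene Sla. None overlapped a gene on its own strand. Since the strand setting of the counting is not given in the sources used here, reads of such pairs cannot be assigned with certainty. Gm2629 had 494 to 709 CPM in microglia against a mean of 16.6 CPM in other nuclei, and it gave the highest ratio. Not all of the 25 genes separated microglia from BAMs, for which Il10ra was higher in microglia in 6 of 8 libraries and Nckap1l, Nlrp1b, Itgam and Gna15 in 7, while the others were higher in 8. Il10ra, for example, was at 64.4 to 297 CPM in BAMs.

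**Figure D1:**
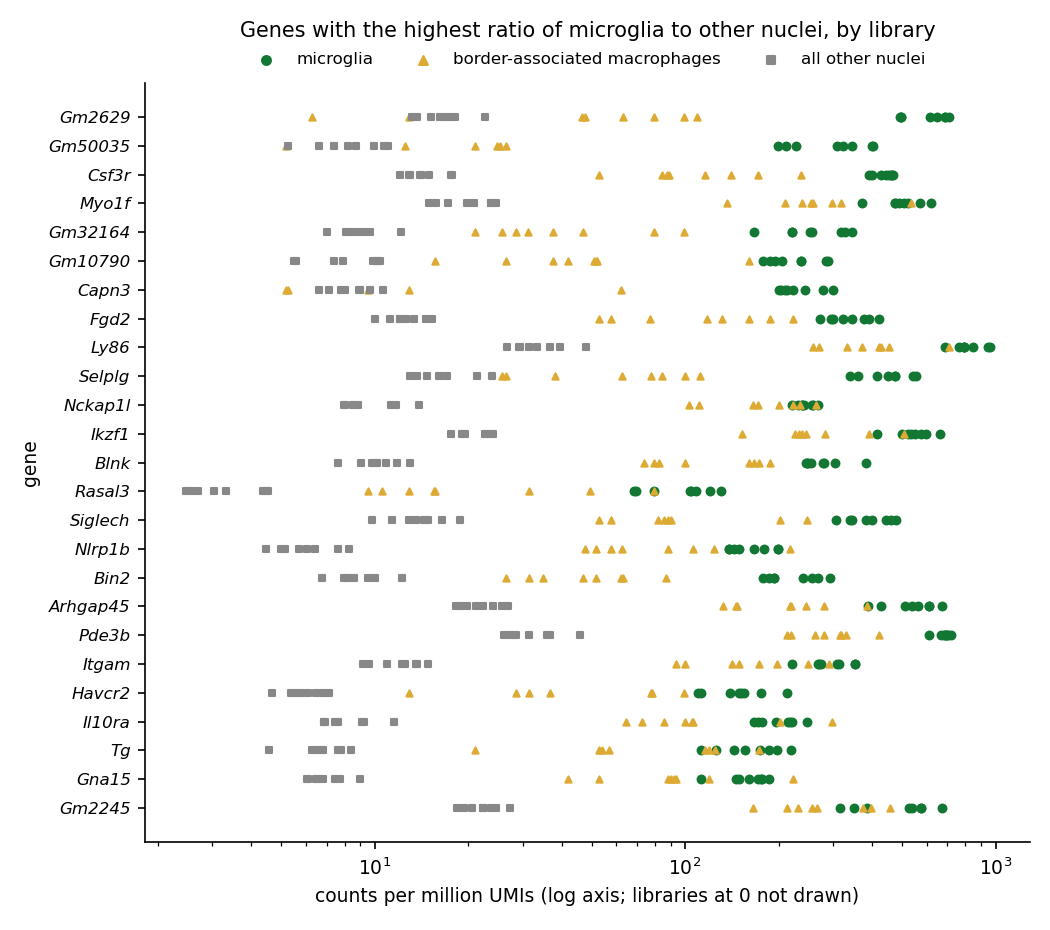
Counts-per-million (CPM, log axis) of the 25 genes with the highest ratio of microglia to other nuclei, with 1 symbol per library for microglia (circles), border-associated macrophages (triangles) and all other nuclei (squares). Microglia lay above other nuclei in each of the 8 libraries for all 25 genes, such as Csf3r at 391 to 467 CPM in microglia, 53.0 to 235 CPM in macrophages and 12.1 to 17.7 CPM in other nuclei. Macrophages reached microglial levels for some genes, such as Il10ra at 64.4 to 297 CPM in macrophages and 167 to 247 CPM in microglia.

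Promoter sequences of RefSeq (build GRCm38.p6) were matched by symbol for 17 of the 25 genes. The letters GAGGAAG or their reverse complement CTTCCTC, which hold the core bound by PU.1 and other ETS factors, were searched on both strands in the 250 bases before each start. They stood in a promoter of 6 of these 17 genes (35.3%), against 12.0% of all genes in the table. Counted by promoter, they stood in 6 of the 25 promoters of these genes, against 10.6% of all promoters. The match is a description of these letters and shows no binding. The first 4 genes by ratio are printed to show where the letters, in capitals, lie before the start of genes at high levels in microglia. For Csf3r (chr4:126024533-126024619, plus strand) they begin 86 bases before the start, for Nlrp1b (chr11:71230783-71230869, minus strand) 96, for Arhgap45 (chr10:80019425-80019499, plus strand) 222 and for Itgam (chr7:128062516-128062602, plus strand) 84.
Csf3r: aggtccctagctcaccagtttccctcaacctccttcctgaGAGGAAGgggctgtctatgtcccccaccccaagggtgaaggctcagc
Nlrp1b: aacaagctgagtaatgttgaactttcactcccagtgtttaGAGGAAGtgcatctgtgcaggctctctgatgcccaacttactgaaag
Arhgap45: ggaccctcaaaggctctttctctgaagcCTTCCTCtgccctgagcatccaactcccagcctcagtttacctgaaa
Itgam: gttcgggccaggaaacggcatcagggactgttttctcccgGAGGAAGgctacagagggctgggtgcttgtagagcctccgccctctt

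BAMs, the macrophages of meninges and vessels, are the cells most like microglia. In all 224 nuclei (7 to 60 per library) met their rule, which asked for at least 3 UMIs of Mrc1, F13a1 and Cd163, at least 2 of Csf1r, Inpp5d and Dock8, and St18 below 3 UMIs. Of the 5411 genes with at least 50 CPM in either, the 10 with the highest ratio to BAMs were Cd34, 9130019P16Rik, Gm56850, Capn3, Cntnap2, A830008E24Rik, Gm50035, Rmst, Slc25a21 and Atp8a2. Cd34, a sialomucin of progenitor cells, was at 37.0 to 112 CPM in microglia and at 0 to 31.3 CPM in BAMs. Atp8a2, a phospholipid flippase, was at 403 to 535 CPM and at 0 to 74.4 CPM. Both were higher in microglia in 8 of 8 libraries, whereas Cntnap2, Rmst and Slc25a21 were higher in 7.

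The 10 genes lowest against BAMs were Ms4a4a, Lyve1, Gm49144, Gm30489, Vsig4, Gm56975, Ccl8, Timd4, Msr1 and Pf4. Lyve1, the hyaluronan receptor of perivascular macrophages, had 4 UMIs and the phagocytic receptor Timd4 6 UMIs in all microglia together. Gm30489 had none in 1271 microglia, which allows a share of nuclei with a UMI of up to 0.236% (3 counts, counting error only). Msr1, a scavenger receptor, was at 0 to 12.3 CPM in microglia and at 106 to 322 CPM in BAMs. Pf4, a chemokine of perivascular macrophages, was at 0 to 12.5 and at 53.0 to 373 CPM. Sall1, the identity factor of microglia, was at 154 to 248 CPM in microglia and at 0 to 46.7 CPM in BAMs. It was chosen after its values were seen.

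The 16 gene lists of function were read against the other nuclei in the same way, without the genes of the rule, which were taken out of the lists after the data had been seen. The 44.2% above covers only genes with at least 50 CPM in microglia of every library, so for each list the count of such members, called expressed here, is given beside that of all members. Beyond the 5 members with the highest mean level in each list, genes are named here after their values were seen. Of 15 homeostatic genes outside the rule, 14 were higher in microglia in 8 of 8 libraries, with a list median of 3.19 on the log2 scale. Among the 13 expressed members 12 were higher. Cst3 and Mef2c were among the members at the highest mean level. Cst3, a secreted protease inhibitor, was at 1983 to 3313 CPM, above other nuclei and below droplets in all libraries. Bin1, the exception, was higher in 7 of 8 libraries with a log2 ratio of 0.07.

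The signalling list around CSF1R and TREM2 had 13 of 15 genes outside the rule higher in 8 of 8 libraries, with a median of 3.87, and all 12 expressed members were higher. Its members Lyn and Fyb, a kinase and an adaptor, were at 663 to 761 and 505 to 723 CPM, and Plcg2, the phospholipase below TREM2, was at 208 to 336 CPM. The ligand Csf1 went the other way, with 44.1 to 78.8 CPM in microglia against a mean of 147 CPM in other nuclei. The second ligand, Il34, was at 6.16 to 41.6 CPM against 25.1 CPM.

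Among 22 transcription factors, 18 were higher in 8 of 8 libraries, all 15 expressed ones among them, and Tfec was at 0. Mef2a, Mef2c, Runx1, Ikzf1 and Fli1 were at the highest mean levels. Runx1 had 421 to 665 CPM, against a mean of 26.6 CPM in other nuclei. Spi1, which encodes PU.1, was at 110 to 194 CPM against 8.53 CPM, and Irf8 at 193 to 248 CPM against 10.6 CPM. The TGF-beta list had 10 of 14 genes higher in all libraries (9 of 12 expressed members), led by the receptor Tgfbr1 at 1224 to 1553 CPM against a mean of 124 CPM. Nrros, which anchors latent TGF-beta on microglia, was at 97.6 to 151 CPM against 11.2 CPM.

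For phagocytosis, 20 of 22 genes were higher in all libraries (16 of 17 expressed members) and 21 exceeded the droplets. Elmo1, a partner of DOCK proteins in engulfment, was at 1361 to 1576 CPM, Mertk, a receptor for dying cells, at 643 to 871 CPM and Dock2 at 662 to 804 CPM. Megf10 and Dock1, the 2 exceptions, were lower in microglia than in other nuclei, with means of 166 and 290 CPM there. Of 12 complement genes, 8 were higher in 8 of 8 libraries, including 5 of 7 expressed members. C1qa, C1qb and C1qc, the chains of the first component, were at 490 to 998, 370 to 735 and 193 to 421 CPM and exceeded the droplets. C4b, at 166 to 316 CPM, lay below both the other nuclei (534 CPM on average) and the droplets (925 CPM).

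Of 20 ion channels and purine receptors outside the rule 15 were higher in 8 of 8 libraries (8 of 10 expressed members), among them Itpr2, Entpd1, which degrades extracellular ATP, Kcnma1 and Cacna1d. Entpd1 was at 271 to 382 CPM against a mean of 22.3 CPM. Of 14 genes for migration outside the rule 11 were higher in all libraries (6 of 7 expressed members), among them Arhgap15, Arhgap45 and Arhgap24. Arhgap24 was at 132 to 219 CPM against a mean of 48.2 CPM. Ccr2, the receptor of monocytes, was at 9.46 to 54.0 CPM in microglia and at a mean of 92.0 CPM in BAMs.

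Of 23 disease-associated genes, 12 were higher than in other nuclei in 8 of 8 libraries (8 of 12 expressed members), and 6 exceeded the droplets in all of them while 10 lay below. Trem2 and Tyrobp, receptor and adaptor, were at 150 to 284 and 152 to 291 CPM, above the droplets (means of 71.3 and 144 CPM) in 8 of 8 libraries. Apoe, a lipid carrier protein, was at 3037 to 4720 CPM, below the droplets (6964 to 13188 CPM) in 8 of 8 libraries. The same held for Fth1, the iron store protein, at 2846 to 5783 CPM, Cd9 and Cd63. Itgax, Cst7 and Igf1 were at most at 24.7, 12.3 and 18.9 CPM, each with 0 in at least 1 library.

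The remaining lists had these counts of genes higher in 8 of 8 libraries: 6 of 20 for lipid handling, 10 of 20 for the interferon response, 14 of 21 for inflammatory cytokines and their receptors, 9 of 12 for antigen presentation, 2 of 13 for immediate early and heat shock genes and 0 of 9 for proliferation. Among expressed members the counts were 2 of 8, 6 of 6, 3 of 4, 5 of 5 and 0 of 2 in the same order, and no proliferation gene reached 50 CPM in every library. Among the receptors, Il6ra was at 199 to 260 CPM and Il10ra at 167 to 247 CPM, while Il1b, Tnf and Il6 did not exceed 5.20, 23.9 and 17.2 CPM. Mki67 and Top2a, markers of dividing cells, were at 0 to 6.51 and 0 to 10.4 CPM. Cd74, the invariant chain of MHC class II, was at 55.4 to 307 CPM in microglia and at 595 to 2410 CPM in BAMs, while the costimulator Cd86 was at 126 to 171 CPM in microglia.

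**Figure D2:**
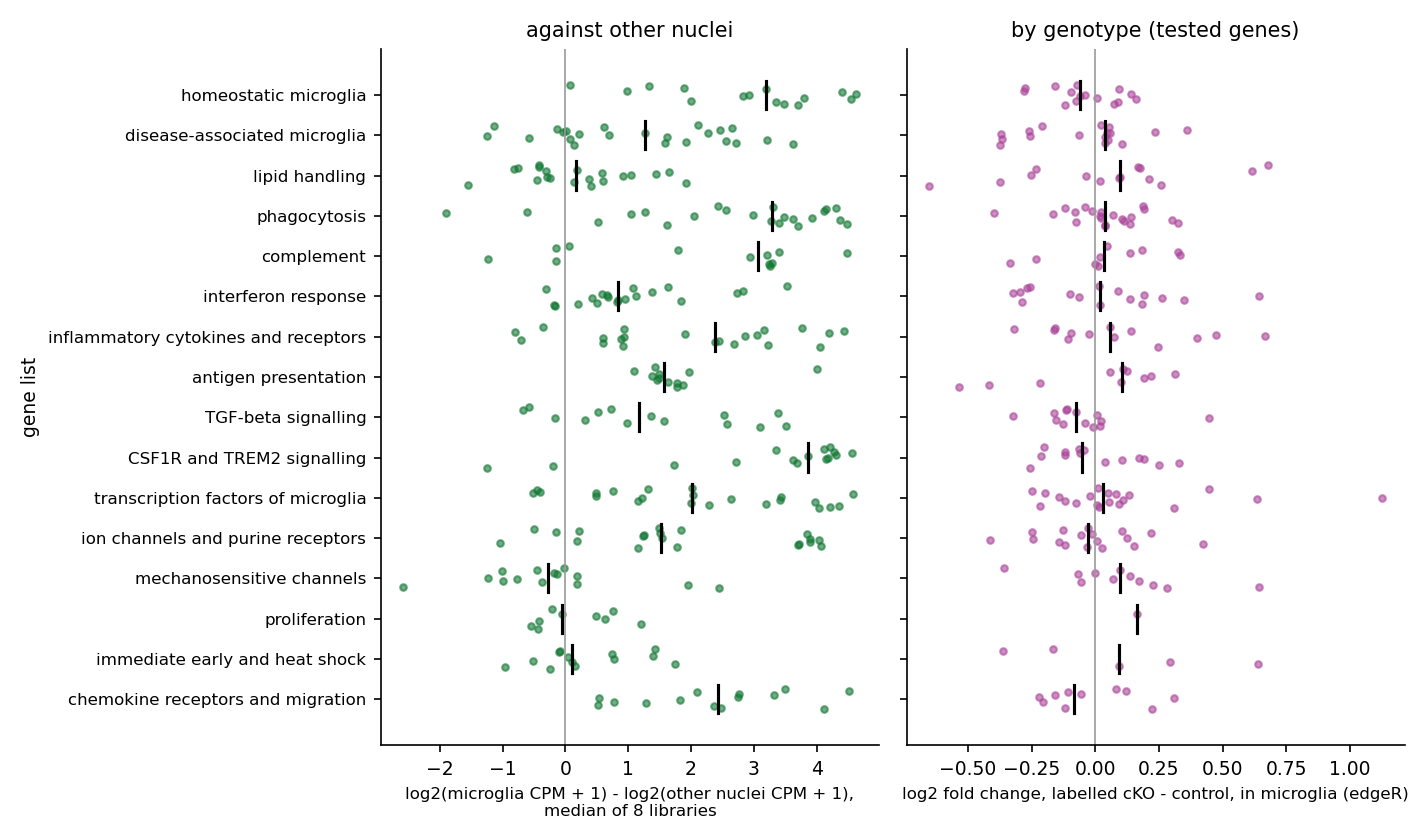
Members of 16 gene lists of function without the genes of the rule, with 1 point per gene and the list median as a bar; the left panel gives the log2 ratio of microglia to other nuclei (1 CPM added, median of 8 libraries) and the right panel the log2 fold change of the libraries labelled cKO against control within microglia, for genes tested. The left medians spread from -0.28 (mechanosensitive channels) to 3.87 (CSF1R and TREM2 signalling), whereas the right medians stayed between -0.08 and 0.16.

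Variation among microglia was measured as the ratio of variance to mean of a gene's UMIs within a library, after each nucleus was thinned to 1000 UMIs. A ratio of 1 is that of random sampling. Over 4843 genes with a mean of at least 50 CPM, the median ratio was 1.03, and 141 genes had 1.5 or more. The 15 highest were Trpm3, Malat1, Pcdh9, Ptgds, Nrxn3, Cd74, Meg3, Lhfpl3, Hbb-bs, Nlgn1, Apoe, Lsamp, Opcml, Slc24a2 and Nxph1. Cd74 among them was higher in microglia than in other nuclei by 1.64 on the log2 scale, and Trpm3 had a log2 ratio of -0.16.

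Trpm3, a cation channel gene on the list of fibroblast markers, had a ratio of 21.8 (range over libraries 7.45 to 26.4), and the tenth of microglia with the most UMIs held 96.0% of its UMIs. Among the 711 marker-low microglia the ratio of Trpm3 was 1.68, while Nrxn3, Nlgn1, Opcml and Nxph1 were at 1.00. A library with only 1 UMI of a gene gives this value too, so for these 4 genes it does not measure variation. Malat1, Pcdh9, Cd74, Apoe and Slc24a2 remained among the 15 highest there, with Cd74 at 3.75 and Apoe at 3.43. Of these, Pcdh9 and Slc24a2 were lower in microglia than in other nuclei, with log2 ratios of -2.89 and -3.44. Malat1 had -0.68 and Apoe 0.13. Among genes that entered the 15 there, Nkain2, Pde4b and Lrp1b had -3.34, -3.03 and -2.41, and Cst3, Lyz2 and Csmd3 had 1.88, 1.35 and 1.00. The part of other cells in this variation was not tested. Cd74 was found after thinning in 3.06 to 15.3% of the microglia of a library, and Apoe in 77.0 to 94.1%. This comparison was added after the data had been seen.

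The genes of the highest ratio to other nuclei were looked at separately. The 348 genes at least 4-fold higher in microglia than in other nuclei had a median ratio of 1.12, and 15 of them reached 1.5. The highest were Fgf13 with 2.21, Lrmda with 2.12, Nav2 with 1.82, Ly86 with 1.81, Nav3 with 1.77 and Tgfbr1 with 1.72. Among marker-low microglia, Fgf13 had 2.13 and Lrmda 2.03. Fgf13, an intracellular fibroblast growth factor homologue that binds sodium channels, was found in 21.7 to 34.0% of thinned microglia. The tenth of nuclei with the most UMIs held 62.4% of its UMIs. These genes were chosen after their values were seen.

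**Figure D3:**
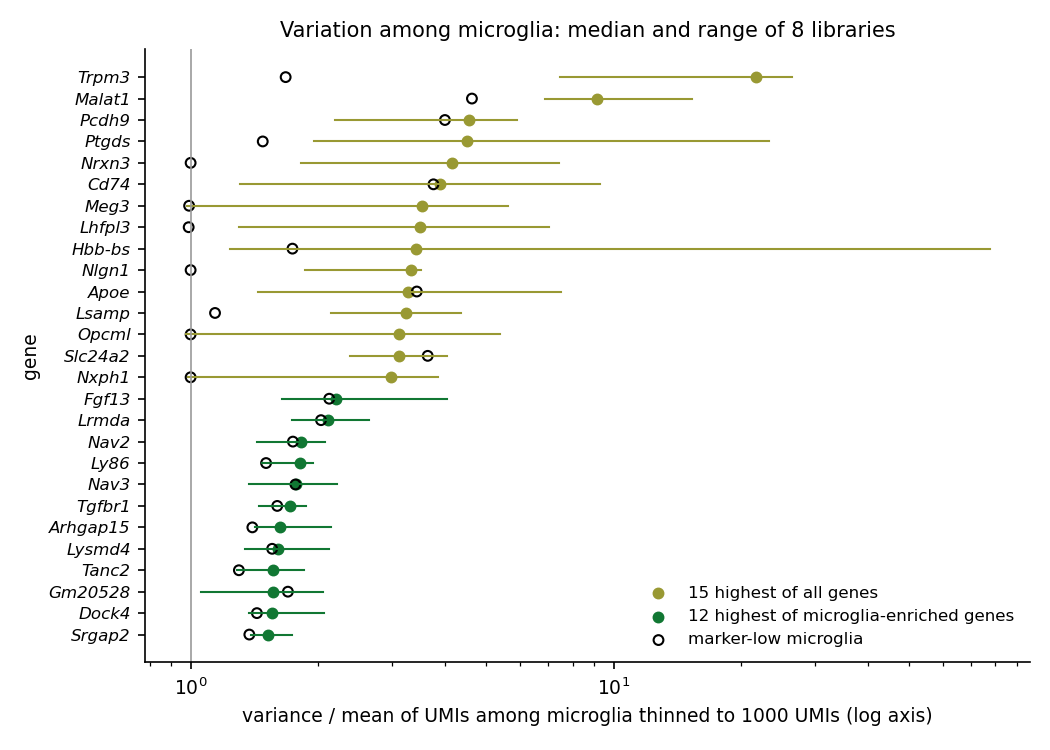
Ratio of variance to mean of UMIs among microglia thinned to 1000 UMIs (log axis), for the 15 highest genes and for the 12 highest of the genes at least 4-fold higher in microglia; points are medians and lines ranges of 8 libraries, and open circles are marker-low microglia, with fewer than 2 UMIs of the astrocyte genes and of Dcn, Col1a2, Flt1, Pdgfra and Skap1. Trpm3 moved from 21.8 to 1.68, whereas Cd74, Apoe and Fgf13 stayed at 3.75, 3.43 and 2.13.

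The share of microglia did not separate the genotypes. Microglia made up 2.53, 3.35, 3.10 and 2.66% of nuclei in the controls and 3.54, 3.65, 2.83 and 3.05% in the libraries labelled cKO. The ranges overlapped, and the means were 2.91 ± 0.381% and 3.27 ± 0.393% (SD, n = 4), a difference of 0.361 percentage points (exact permutation test, two-sided, p = 0.229). The Wilson intervals of single libraries ran from 2.16 to 2.97% at the lowest share and from 3.24 to 4.11% at the highest, and they cover counting error only. Median depth was 2175 ± 174 UMIs in control microglia and 2102 ± 276 UMIs in microglia labelled cKO (exact permutation test, two-sided, n = 4, p = 0.686). With 4 against 4 libraries the smallest p possible is 0.0286.

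**Figure D4:**
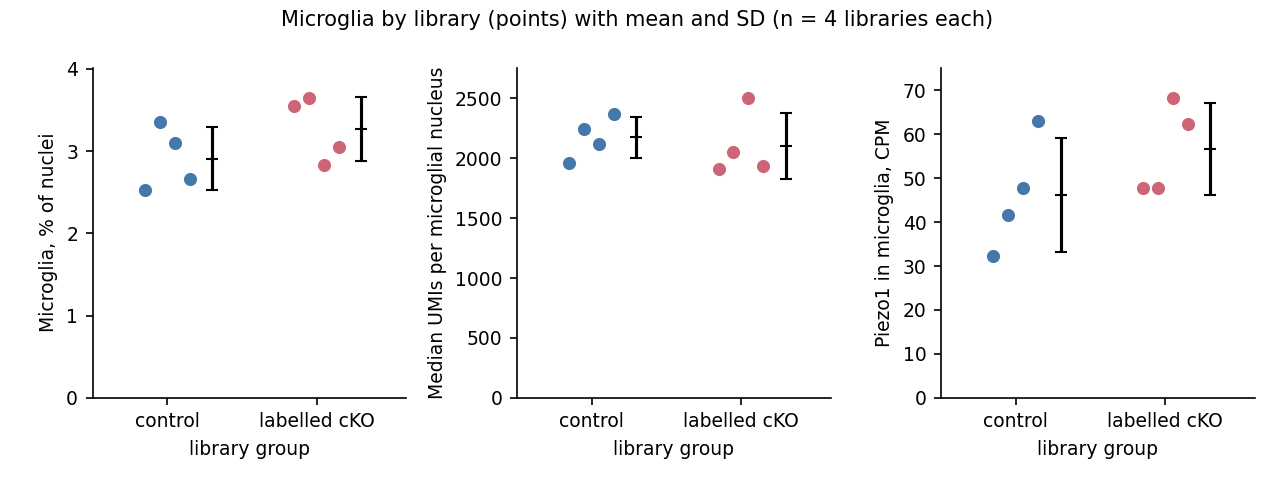
Share of microglia among nuclei, median UMIs per microglial nucleus and Piezo1 in counts-per-million (CPM), with 1 point per library and mean ± SD of the 4 libraries of a group. The groups overlapped in all 3 panels, with shares of 2.53 to 3.35% in the controls and 2.83 to 3.65% in the libraries labelled cKO.

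Within microglia no gene passed the thresholds between genotypes (edgeR quasi-likelihood test, Benjamini-Hochberg adjusted p below 0.05, and a log2 fold change beyond 0.5 in either direction). Of 8761 genes tested 0 were called (0%), and 507 (5.79%) had an unadjusted p under 0.05. The lowest adjusted p was 0.312, and the median log2 fold change was 0.01. DESeq2 called 5 genes, all lower in the libraries labelled cKO: Hbb-bt, Hbb-bs, Hba-a2, Tmem47 and Spag16. CPM did not overlap between the groups for 269 genes (3.07%).

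The 10 genes with the smallest p are therefore values and not calls. The hemoglobin genes Hbb-bt, Hba-a2 and Hbb-bs were among them, which belong to pairs of near-identical copies. Hbb-bt was at 203, 279, 251 and 473 CPM in control microglia and at 113, 80.1, 88.2 and 158 CPM in microglia labelled cKO, without overlap. Its log2 fold change was -1.46 (SE 0.27, adjusted p = 0.312, edgeR). Hba-a2 had -1.09 (SE 0.20) and Hbb-bs -1.24 (SE 0.28). Erythrocytes make these transcripts, and the sum of 4 hemoglobin genes was 11547 to 19134 CPM in droplets of the controls and 5064 to 8405 CPM in those of the libraries labelled cKO. In marker-low microglia the sums were 2493 to 3982 and 957 to 1939 CPM, and all 4 genes were called there, Hbb-bt with a log2 fold change of -1.80. All 4 were called as well after thinning each microglial nucleus to 1000 UMIs, and Hbb-bt and Hba-a2 with 4 of 5 markers asked for. In the droplets themselves Hbb-bt differed by -1.54 (adjusted p = 0.0382, edgeR) and Hba-a2 by -1.49 (adjusted p = 0.0261, edgeR), while Hbb-bs, with -1.47 (adjusted p = 0.0506, edgeR), was not called. With the droplet profile subtracted from the microglial counts, an alternative chosen after seeing the data, Hba-a2 had -0.38 and Hbb-bs -0.72, neither called, and Hbb-bt gave no value. In the other nuclei of the same libraries the 4 genes had -1.22 to -1.29, not called either.

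Igfbp3, a secreted binding protein of insulin-like growth factors, was at 18.5, 2.45, 4.16 and 22.1 CPM in control microglia and at 271, 41.6, 66.1 and 203 CPM in microglia labelled cKO. The groups did not overlap, and the log2 fold change was 3.65 (SE 0.68, adjusted p = 0.312, edgeR). Among marker-low microglia, Igfbp3 was at 0 to 10.7 CPM in the controls and 6.47 to 15.9 CPM in the libraries labelled cKO, and the groups overlapped. Astrocytes had a mean of 36.0 CPM and droplets a range from 37.1 to 90.7 CPM. By genotype, the log2 fold change of Igfbp3 was 1.42 in astrocytes, 0.54 in droplets and 0.49 in other nuclei, not called in any of them.

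Of the other genes, Trafd1, a negative regulator of toll-like receptor signalling, was at 53.1, 61.3, 64.4 and 50.5 CPM in the controls and had 106, 103, 92.6 and 101 CPM in microglia labelled cKO. Its log2 fold change was 0.78 (SE 0.17, adjusted p = 0.522, edgeR), its groups did not overlap, and in other nuclei the difference was 0.16. Among marker-low microglia it was 0.54. Tmem47, Sfxn5, Gria1, Armc2 and Agbl4 had values from -1.02 to -1.86. Tmem47, Sfxn5 and Gria1 averaged 458, 421 and 976 CPM in astrocytes, more than in microglia of either group. The value of Tmem47, -1.09, was -0.39 among marker-low microglia, -0.22 after thinning and -2.33 with the droplet profile subtracted. That of Sfxn5, -1.02, was -0.48 with 4 of 5 markers asked for.

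**Figure D5:**
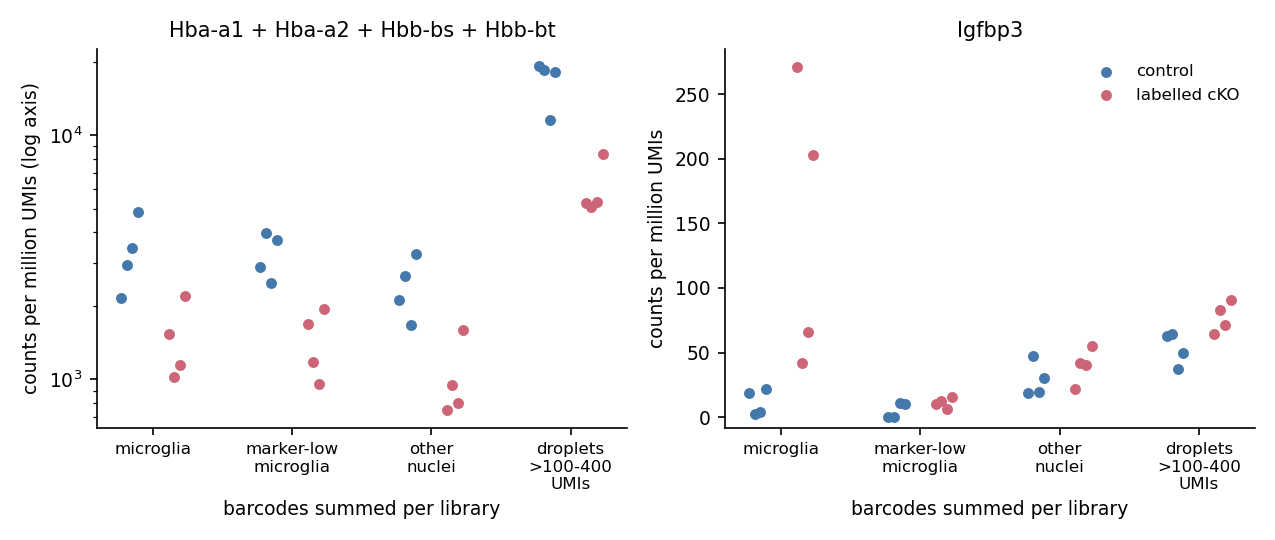
Sum of 4 hemoglobin genes (left, log axis) and Igfbp3 (right), in counts-per-million (CPM), with 1 point per library for microglia, marker-low microglia (fewer than 2 UMIs of the astrocyte genes and of Dcn, Col1a2, Flt1, Pdgfra and Skap1), other nuclei and droplets of over 100 and up to 400 UMIs. Hemoglobin was lower in droplets of all libraries labelled cKO (5064 to 8405 CPM) than of all controls (11547 to 19134 CPM), and Igfbp3 reached 271 CPM in all microglia but 15.9 CPM among marker-low microglia.

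None of the 16 lists had a member called between genotypes. Of 15 homeostatic genes outside the rule none had an unadjusted p under 0.05, 6 were positive and 9 negative, and the median was -0.06, beside 0.01 over all genes. None of 21 phagocytosis genes, 10 complement genes, 16 interferon genes or 14 genes of CSF1R and TREM2 signalling outside the rule had an unadjusted p under 0.05, beside 5.79% of all genes tested, a share at which lists of this size hold few or none. Only 10 of the 12 complement genes were tested here. C3 was not among them, as it did not pass the filter on low counts, and its values are given with the interaction below. Of 17 disease-associated genes 2 did, Apoe with -0.37 and Cd63 with -0.37, and the list median was 0.04. Of 20 transcription factors tested 1 did (Cebpb, 1.13), as did 1 of 13 TGF-beta genes (Ski, -0.32), 1 of 13 inflammatory genes (Cd14, 0.67) and 2 of 5 immediate early and heat shock genes (Junb, 0.64, and Hsp90aa1, -0.36). With so few members tested, these counts are given as values beside the 5.79% of all genes.

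Lipid handling had 4 of 14 tested genes with an unadjusted p under 0.05, against 5.79% of all genes, and they went in both directions. Abca1, the cholesterol exporter, was at 164, 132, 137 and 180 CPM in control microglia and at 99.8, 87.8, 130 and 79.8 CPM in microglia labelled cKO, without overlap. Its log2 fold change was -0.65 (SE 0.19, adjusted p = 0.683, edgeR). Apoe had -0.37, whereas Fabp5, a fatty acid-binding protein, had 0.62. Abca1 averaged 166 CPM in astrocytes, and whether astrocyte RNA takes part in its value was not tested. All 5 astrocyte markers had negative values in microglia, with a median of -0.48.

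Piezo1 encodes the mechanosensitive channel related to the targeted Piezo2. It was at 32.3, 41.7, 47.8 and 63.1 CPM in control microglia and at 47.7, 47.8, 68.4 and 62.4 CPM in microglia labelled cKO. The groups overlapped, and the log2 fold change was 0.28 (SE 0.25, adjusted p = 0.960, edgeR). Droplets held 2.39 to 5.57 CPM, other nuclei a mean of 7.55 CPM, astrocytes 7.37 CPM and OLs 1.98 CPM, and microglia lay above all of these in 8 of 8 libraries. Ctu2 overlaps Piezo1 on the opposite strand and was at a mean of 10.2 CPM. BAMs averaged 48.6 CPM. A Piezo1 UMI was found in 3.38, 6.87, 5.56 and 5.10% of thinned control microglia and in 4.14, 3.91, 13.9 and 9.85% of thinned microglia labelled cKO (means of 5.23 ± 1.44% and 7.96 ± 4.84%, SD, n = 4, exact permutation test, two-sided, p = 0.371). The difference of 2.73 percentage points was 0.740 without cKO 12 and 4.00 and 4.08 without cKO 10 and cKO 11.

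Without thinning, 8.78 to 20.5% of microglia held a Piezo1 UMI, against 1.42 to 3.27% of astrocytes, at median depths of 1911 to 2506.5 and 2654 to 3824 UMIs. In BAMs the share was 5.88 to 57.1%, at median depths of 2491 to 4632 UMIs, with a mean of 21.7% against 13.7% in microglia. By snRNA-seq the study reported Piezo1 in the ON mainly in endothelial cells, and by in situ hybridization it reported enrichment in OL precursor cells. Neither cell type was set apart here. Of the 14 genes on the list of mechanosensitive channels and effectors, only Piezo1 and Trpv2 were higher in microglia than in other nuclei in 8 of 8 libraries, and of its 4 expressed members 0 were. Trpv2 was at 18.7 to 45.1 CPM against a mean of 9.19 CPM. Trpm7, Pkd2, Tmem63a, Kcnk2 and Tmem87a had the highest mean levels, and Tmem63a was lower in microglia (62.4 to 131 CPM) than in other nuclei (197 CPM) in 8 of 8 libraries. None of the 11 tested members had an unadjusted p under 0.05.

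Piezo2 itself was at 18.5, 31.9, 49.9 and 59.9 CPM in control microglia and at 39.1, 69.3, 94.8 and 48.6 CPM in microglia labelled cKO. Droplets held 38.0 to 77.4 CPM, and microglia exceeded the droplets of their own library in 3 of 8 libraries. The log2 fold change was 0.64 (SE 0.35, adjusted p = 0.918, edgeR), and it was 0.39 without control 1 and 0.39 without cKO 12. After thinning, 3.34% of microglia and 4.84% of astrocytes held a Piezo2 UMI on average, against 32.5% of OLs. By genotype this share went the other way, with 3.89 ± 2.91% of control microglia and 2.78 ± 1.74% of microglia labelled cKO (SD, n = 4, exact permutation test, two-sided, p = 0.457). In the 711 marker-low microglia, where OL transcripts other than St18 were not limited, Piezo2 was at 31.5 CPM at most in the controls and at 47.5 CPM or more in the libraries labelled cKO, without overlap, but it did not pass the filter on low counts there and was not tested. Olig2 was at 3.15 to 16.6 CPM in control microglia and at 11.0 to 34.7 CPM in microglia labelled cKO, with overlap, and its droplet level averaged 65.4 CPM.

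Whether the genotype difference in microglia differed from that in the other nuclei of the same libraries was tested as an interaction. Of 18543 genes 0 were called (0%), and 1155 (6.23%) had an unadjusted p under 0.05 (edgeR quasi-likelihood test). A gene could enter by its counts in the other nuclei alone, whereas 8761 genes passed the filter on low counts within microglia. By p, the first 5 were C3, Cfap299, Mgat4c, Epas1 and Frmd5, all with an adjusted p of 0.112. Of these, C3 and Cfap299 did not pass the filter within microglia of all 8 libraries and were not tested there. C3, the central complement component, was at 178, 83.3, 20.8 and 37.8 CPM in control microglia and at 19.5, 20.0, 15.4 and 20.8 CPM in microglia labelled cKO, with overlap. Its interaction was -2.15 (SE 0.39, log2 scale). Droplets held 65.2 to 179 CPM of C3, more than the microglia of the same library in 8 of 8. Leaving out single libraries gave 1 to 29 calls, and C3 was called without control 2, 3 or 4 and without cKO 11, 12 or 13. Cfap299 and Mgat4c were called in 4 such fits each, Epas1 in 3 and Frmd5 without cKO 10.

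Epas1, a hypoxia-inducible factor that endothelial cells hold at high levels, was at 20.8, 19.6, 33.2 and 22.1 CPM in control microglia and at 47.7, 32.4, 83.8 and 144 CPM in microglia labelled cKO, with an interaction of 1.76 (SE 0.35). The endothelial markers summed to 95.6 to 169 CPM in control microglia and to 33.9 to 498 CPM in microglia labelled cKO. Cfap299, a ciliary gene, had -3.43 (SE 0.66), Mgat4c 1.61 (SE 0.32) and Frmd5 0.98 (SE 0.20). Frmd5 averaged 1041 CPM in other nuclei and 80.2 ± 24.8 CPM in control microglia, against 148 ± 48.8 CPM in microglia labelled cKO (SD, n = 4). With no St18 UMI allowed the interaction was 0.22 for Frmd5 and 1.09 for Mgat4c, and neither was called. Among marker-low microglia, which may hold up to 2 St18 UMIs, Frmd5 was called between genotypes with a log2 fold change of 1.57 (SE 0.34).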

How the data were processed

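Nuclei of pooled ONs (6 nerves of 3 mice per library) were profiled with droplet-based 3' chemistry. The authors deposited raw matrices of whole-number UMI counts per gene and barcode, made with Cell Ranger 7.0.0 on GRCm39 per the labels and the study's methods, without normalization. Barcodes with at least 1000 UMIs and under 5% mitochondrial UMIs were taken as nuclei. No doublet caller was run, and the limits on St18 and macrophage UMIs bear only on nuclei mixed with OLs or macrophages. Counts of microglia were summed per library, which is the replicate. CPM divide by the UMI total of the summed nuclei. Whether reads were counted by strand is not given in the sources used here.

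Genotypes were compared with edgeR 4.0.16 (filterByExpr, TMM, quasi-likelihood test, Benjamini-Hochberg adjustment over all genes tested), with DESeq2 1.42.0 as an alternative in R 4.3.3. The interaction used the sums of microglia and of all other nuclei with library as a term. Values with 1 number per library were compared by exact permutation tests in SciPy 1.17.1. Nuclei were thinned to 1000 UMIs for shares of nuclei with a UMI and for variation, and none was left out as too shallow. Free RNA was read from droplets of over 100 and up to 400 UMIs, a choice made after seeing the data in place of droplets of 1 to 100 UMIs. The fits were also run on simulated data, whose outcome is not reported here. Depth ran from 317124 to 649024 microglial UMIs per library, and the libraries, each a pool of animals, are the replicates behind every p. In the edgeR and DESeq2 fits the spread of a gene between libraries was estimated with information shared across genes.

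The members and gene lists were chosen with earlier results of these data known. Named were the genes of the rule with Piezo1, Piezo2 and Olig2, the 10 smallest p by genotype (fewer than 10 genes were called), the 5 smallest p of the interaction, the 25 highest ratios to other nuclei among genes with at least 50 CPM in every library, the 10 highest and 10 lowest against BAMs, the 15 most variable genes, up to 5 members of each list by mean level and up to 4 promoters. Gene positions follow GRCm39, and promoters follow RefSeq on GRCm38.p6. The alternatives were another scaling, no filter on low counts, other limits for nuclei and markers, thinning, subtraction of the droplet profile and leaving out single libraries. A few members of the lists are not reported here.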

Additional observations from a re-analysis of the deposited data

Results flagged for a closer look

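Genes of the rule were left out here. In 7 of 156 groups of 4 libraries (4.49%), 1 library stood apart from the other 3 by Dixon's test at the 95% level, and chance alone flags about 1 group in 20. Microglia of cKO 11 accounted for 5 of these. In that library Ly86 was at 957 CPM (761 to 794 CPM in the other libraries labelled cKO) and Havcr2 at 213 CPM (149 to 154 CPM). The lipid handling list summed to 5457 CPM (4625 to 4729 CPM), the complement list to 3796 CPM (2560 to 2641 CPM) and the list of ion channels and purine receptors to 2413 CPM (2156 to 2189 CPM). Among the controls, Blnk was at 383 CPM in control 1 (248 to 255 CPM in the others). The pituitary list summed to 2194 CPM in microglia of control 3, against 43.9 to 135 CPM in the other controls. In microglia labelled cKO it summed to 6.51 to 20.0 CPM, below every control.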

How the results depend on the processing

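No paired analysis was possible because the groups share no replicate numbers. The count of genes differing by genotype, 0 by edgeR, stayed at 0 with RLE scaling, a minimum of 500 or of 2000 UMIs, no St18 UMI allowed and, chosen after seeing the data, the droplet profile subtracted. It was 5 with DESeq2, 168 (34 higher, 134 lower) with every gene of at least 1 count, 2 with 4 of 5 markers, 5 among the 711 microglia with fewer than 2 UMIs of the astrocyte genes and of Dcn, Col1a2, Flt1, Pdgfra and Skap1 and 4 after thinning to 1000 UMIs. Leaving out single libraries gave 0 to 6, with 6 lower without control 2 (Spag16, Tmem212, Gabrb1, Cfap299, Shank2 and Dnah12) and 1 higher (Fbxl7) without control 3. The interaction count, 0, was 81 (31 higher, 50 lower) with every gene of at least 1 count and 1 with no St18 UMI allowed, and leaving out single libraries gave 1 to 29: 3, 19, 7 and 6 without control 1 to 4, and 1, 9, 29 and 2 without cKO 10 to 13. The cause of these moves was not tested. The difference in median depth turned from -72.6 to 4.25 UMIs at a minimum of 2000 UMIs (exact permutation p = 0.914), and it ran from -207 to -7.04 without single libraries. The difference in share, 0.361 percentage points, stayed positive under all alternatives (0.124 to 0.927). The log2 fold change of Piezo1 ran from 0.12 to 0.52 and was never called; after thinning to 1000 UMIs Piezo1 did not pass the filter and gave no value. A thinned share could not be had at a minimum of 500 UMIs. With 98 to 256 microglia per library, low genes such as Piezo1 (194 UMIs in all) limit what can be told apart.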
